A study of Mus musculus with 9 samples.

Results

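The genes described here are 41 genes of DNA repair and DNA damage signalling, taken from a list by symbol and read on microarrays of mouse lung. All 41 were found on the arrays, among 19698 genes that could be named, and each was represented by its brightest probe. The arrays held RNA of lung from male C57BL/6 mice, given as 10 weeks old, and were labelled with a single dye. The study took irradiated lungs weeks to months after irradiation, so the age at which each lung was taken is not known here. Of the 9 arrays, 4 were labelled as control and 5 as irradiated, and neither the dose nor the region nor the time was part of the labels. The study irradiated either a small focus or a wider field of the left lung, and it pooled RNA from triplicate experiments at each time before labelling. Each array therefore stands for a pool of animals, the spread between arrays of a group includes any difference in dose, region or time, and p-values measure only the spread between these arrays. Every irradiated animal was anaesthetised with zoletil and rompun.

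Ionising radiation breaks one or both strands of DNA and oxidises bases. The kinases Atm and Atr are switched on at breaks and at stretches of single-stranded DNA, and signal through the checkpoint kinases Chek1 and Chek2 and through p53, a transcription factor that raises genes such as Cdkn1a. Most repair proteins are always present and are recruited and modified at the lesion, so that their transcripts need not move with their activity. Several genes of recombination and of the Fanconi anaemia pathway are transcribed mainly in cells that replicate DNA.

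With the arrays unpaired, no transcript of the 41 passed the test in either direction. The threshold was an adjusted p under 0.05 in limma with Benjamini-Hochberg adjustment over all 39303 probes kept, and 0.416% of all genes tested passed it (0.264% higher and 0.152% lower in the irradiated arrays). The log2 differences between irradiated and control arrays ran from -0.29 to 0.68 (to 0.64 among the 38 genes well above background on every array), 21 of them above 0 and 20 below. Their median was 0.013, beside 0.0085 over all genes tested. In 33 genes the difference lay within 0.2 of 0, and in 31 it was smaller than the SD of the control arrays. An unadjusted limma p under 0.05 was reached by 3 members (Polk and Mre11a higher, Ddb2 lower), which is 7.32% of the members, against 12.3% of all genes (7.37% higher and 4.98% lower). With arrays paired by their place on the scan image, 7 of the 41 members reached it, a smaller share than among all genes. Of all genes, 24.7% reached it with the pair as a fixed block and 26.7% with the pair as a random block. The lowest adjusted p of the members in limma was 0.409 with the arrays unpaired. It was 0.0948 with the fixed block and 0.0418 with the random block, and the random block called Ddb2 lower.

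The precision of the comparison can be read from its intervals. The 95% intervals of 39 genes lay within a 2-fold change in either direction, and those of 35 lay within a 1.5-fold change. On the log2 scale the intervals reached 0.17 to 0.84 to either side of the estimate, with a median of 0.29. The intervals that reached past a 2-fold change were those of Chek2 and Brca1. On all 9 arrays 38 members were well above background, and the exceptions were Brca1, Fancd2 and Chek1. A gene with a p above the threshold is not shown to be unchanged, and the interval gives the size that remained possible.

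**Figure D1:**
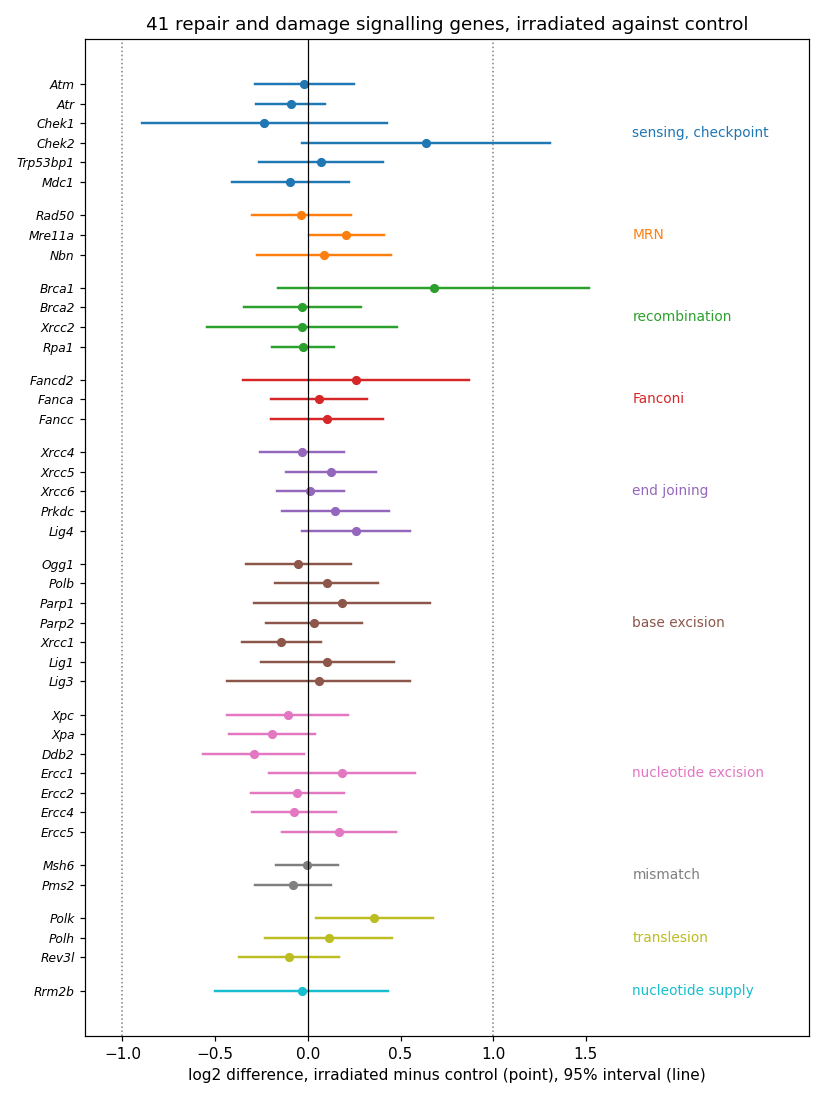
Log2 difference between the irradiated and control arrays (horizontal axis) for the 41 genes, grouped and coloured by repair pathway. Points are the limma estimates, lines their 95% intervals (4 control and 5 irradiated arrays), and dotted lines a 2-fold change in either direction. Of the 41 intervals, 38 include 0, and only those of Chek2 and Brca1 cross a dotted line.

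Each array carried 44397 spots, of which 72.8% to 89.1% of the gene-probe spots were well above background. Defining genes of lung (Sftpc, Sftpb, Sftpd, Ager, Scgb1a1, Cldn18, Cldn5 and Pecam1) were well above background on all 9 arrays. Cardiac muscle genes stood apart on irradiated array 1 and skeletal muscle genes on control array 3, and their part in the results was not tested. The 8 cardiac muscle genes averaged -5.97 on irradiated array 1 relative to the control mean (log2), against -0.51 to 0.56 on the other arrays, and the 8 skeletal muscle genes averaged 4.61 on control array 3, against -2.11 to -0.99 elsewhere. All 8 cardiac genes were detected on every control array. Of 7 leukocyte genes 2 were higher and 5 lower, from -0.71 (S100a8) to 0.70 (Itgax), and none was called. Of 6 liver genes 3 were higher and 3 lower, from -0.54 (Ttr) to 1.42 (Serpina1a), and none was called. The liver genes averaged 1.52 on irradiated array 2 and 0.88 on control array 4. The part of these genes in the results was not tested either. Without irradiated array 1 no member was called and the median difference of the members was -0.019. Without control array 3 no member was called and the median was 0.034.

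Some arrays came in pairs. The positions of the spots on the scan image put 4 control and 4 irradiated arrays side by side in 4 pairs: control 1 with irradiated 2, control 2 with irradiated 3, control 3 with irradiated 4 and control 4 with irradiated 5. Irradiated array 1 had no partner. Within pairs the deviations from the group means correlated at 0.20 to 0.46 across probes, which are not independent replicates. Fits with the scan pair as a fixed block (8 arrays) or a random block (9 arrays) were run as alternatives.

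Genes outside repair did differ between the groups, and the cause of these differences was not tested. Their list, like the others, was chosen with earlier results of these data known. Of 16 target genes of p53 that have no direct part in repair, 6 were higher in the irradiated arrays at the same threshold and none was lower. Of the 19698 genes tested, 52 were higher (0.264%) and 30 lower (0.152%). All 16 differences were above 0, with a median of 0.82 on the log2 scale. Gdf15, a secreted stress cytokine, had log2 intensities of 9.05, 9.18, 8.74 and 9.24 on the control arrays and 12.46, 12.95, 13.10, 12.61 and 12.36 on the irradiated arrays, a difference of 3.64 ± 0.17 (SE, limma adjusted p = 5.23e-05). The groups lie far apart in this gene. For Cdkn1a, the inhibitor of cyclin-dependent kinases that stops the cell cycle after damage, control arrays read 12.25, 11.89, 10.90 and 11.74 and irradiated arrays 13.89, 14.29, 13.61, 12.98 and 13.21 (difference 1.90 ± 0.31, adjusted p = 0.044). Phlda3, a repressor of Akt signalling, differed by 1.19 ± 0.19 (adjusted p = 0.0415). Eda2r, a receptor of the tumour necrosis factor family, was called too (difference 2.47 ± 0.36, adjusted p = 0.0326). Its probe was well above background on only 1 of 4 control arrays, so the size of its difference is poorly measured, and with normexp background correction it came to 0.69 (limma adjusted p = 0.116). Every irradiated array was above every control array in these 4 genes. This held for 9 of the 16 genes, beside 669 of 19698 genes (3.4%). The count of 6 changed whichever array was left out. It came to 1 without any one of the control arrays or of irradiated arrays 2, 3 and 4. It came to 3 without irradiated array 5 and rose to 8 without irradiated array 1. It was 2 in the authors' normalized table, 4 with normexp background correction, 1 without the intensity trend, 1 with the replicate number of the labels as a block, and 10 with either scan pair block. When single arrays were left out, Gdf15 kept its call each time, Cdkn1a and Eda2r kept theirs without irradiated array 1 alone, and Phlda3 without irradiated array 1 or 5. In these fits the differences lay between 3.52 and 3.73 for Gdf15, 1.64 and 2.09 for Cdkn1a, 2.23 and 2.71 for Eda2r, and 1.09 and 1.31 for Phlda3.

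**Figure D2:**
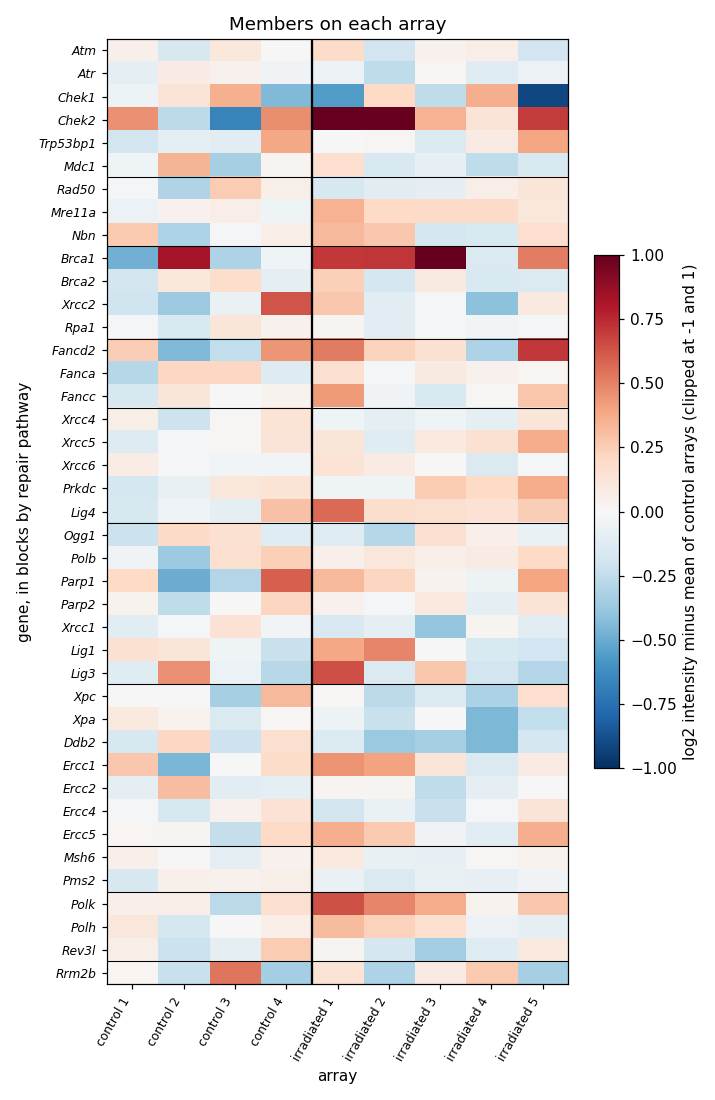
Log2 intensity of each of the 41 genes (rows, in blocks by pathway) on each of the 9 arrays (columns, control arrays left of the line), as a difference from the control mean and clipped at -1 and 1. No block separates the control from the irradiated arrays, and the dim gene Brca1 and Chek2 are among the rows with the strongest colours.

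Taken over the 41 genes, the average on single arrays relative to the control mean was -0.023, -0.036, -0.029 and 0.088 on control arrays 1 to 4 and 0.17, 0.037, 0.039, -0.054 and 0.075 on irradiated arrays 1 to 5. The ranges of the groups overlapped. Irradiated array 1 had the highest average and irradiated array 4 the lowest. On the same scale the averages of the 16 p53 targets were 0.0078, 0.090, -0.090 and -0.0076 on the control arrays and 1.27, 1.17, 0.99, 0.75 and 0.74 on the irradiated arrays, with no overlap.

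**Figure D3:**
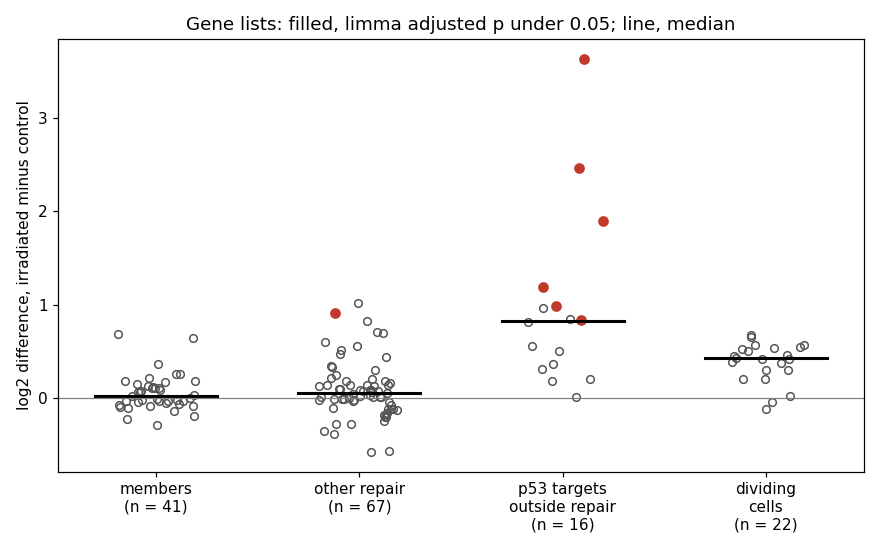
Log2 difference between irradiated and control arrays (vertical axis) for each gene of 4 lists: the 41 members, 67 other repair genes, 16 p53 targets outside repair and 22 genes of dividing cells. Filled points passed the limma threshold and horizontal lines are medians. The members hold no filled point and lie around 0, the other repair genes hold 1, and the p53 targets hold 6.

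Damage sensing was the first group examined. Its members are the kinases Atm and Atr, the checkpoint kinases Chek1 and Chek2 that they activate, and the mediators Trp53bp1 and Mdc1 that gather on chromatin beside a break. Of these 6 genes none was called, and the median difference was -0.056. Atr, which answers to single-stranded DNA, read 12.01, 12.19, 12.15 and 12.07 on control arrays 1 to 4 and 12.05, 11.85, 12.12, 11.99 and 12.05 on irradiated arrays 1 to 5, and differed by -0.093 ± 0.083 (95% interval -0.28 to 0.092). Irradiated array 2 was the lowest of all and the groups overlapped. Mdc1 read 10.83, 11.21, 10.54 and 10.90 on the control arrays and 11.03, 10.72, 10.79, 10.61 and 10.71 on the irradiated arrays, a difference of -0.095 ± 0.14 (-0.41 to 0.22). Control array 2 was the highest and control array 3 the lowest, so that the irradiated arrays fell inside the control range. Atm differed by -0.019 ± 0.12 and Trp53bp1 by 0.070 ± 0.15, and for Trp53bp1 a high value on control array 4 was matched by one on irradiated array 5.

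The checkpoint kinases had wide intervals. Chek2, chosen here after its values were seen because it had the largest difference of the reliably detected members, read 6.70, 5.98, 5.57 and 6.71 on the control arrays and 7.25, 7.24, 6.58, 6.36 and 6.94 on the irradiated arrays. The difference was 0.64 ± 0.30 (95% interval -0.032 to 1.31, limma p = 0.0599, adjusted p = 0.535, exact two-sided permutation p = 0.0952). Control arrays 1 and 4 lay above irradiated arrays 3 and 4, and the 2 groups overlapped. The Chek2 difference ranged from 0.42 (without control array 3) to 0.79 (without control array 4) when arrays were left out, and was 0.43 with scaling to the 75th percentile, 0.35 with normexp background correction and 0.35 in the authors' table. Chek1 differed by -0.23 ± 0.30 (-0.90 to 0.43), with 8 of 9 arrays well above background.

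The MRN complex binds broken ends first, trims them and activates Atm. Its 3 subunits had differences of 0.21 (Mre11a, the nuclease), -0.036 (Rad50, the tether) and 0.086 (Nbn, the adaptor). Mre11a read 9.91, 10.01, 10.03 and 9.92 on control arrays 1 to 4 and 10.31, 10.17, 10.15, 10.16 and 10.08 on irradiated arrays 1 to 5. Every irradiated array lay above every control array, and Mre11a was the only member of the 41 for which this held, in either direction (2.44% of the members, beside 5.15% of all genes, 3.4% higher and 1.76% lower). The closest values were irradiated array 5 and control array 3. Its difference was 0.21 ± 0.091 (95% interval 0.0045 to 0.41), a fold of 1.15, and the limma p of 0.046 became 0.488 after adjustment. The exact permutation p of this single gene was 0.0159, where the smallest that 4 against 5 arrays allow is 0.00794. Rad50 read 11.59, 11.30, 11.85 and 11.66 on the control arrays and 11.44, 11.49, 11.51, 11.67 and 11.73 on the irradiated arrays, with a 95% interval of -0.30 to 0.23, and all irradiated values fell within the control range. The second probe of Rad50 differed by -0.026. The subunits of the complex thus did not share a direction, and the difference between them was not tested.

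**Figure D4:**
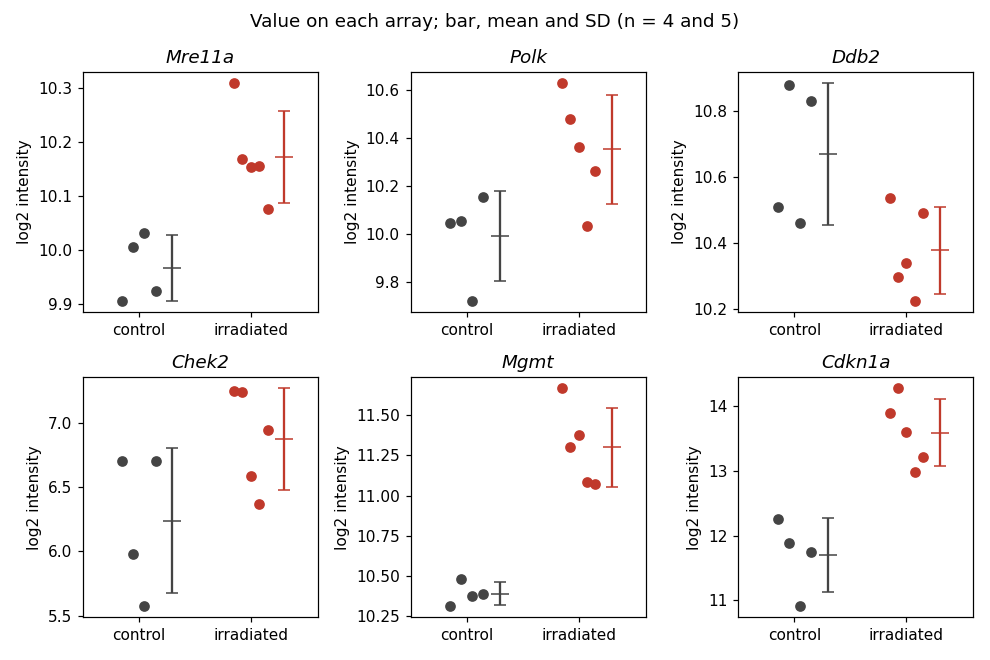
Log2 intensity on each control and irradiated array for 4 members (Mre11a, Polk, Ddb2 and Chek2), for the repair gene Mgmt outside the list and for the p53 target Cdkn1a, each panel on its own scale. Points are arrays and bars are the mean and SD of 4 control and 5 irradiated arrays. The groups overlap in Polk, Ddb2 and Chek2, and are separate in Mre11a, Mgmt and Cdkn1a.

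Homologous recombination copies the lost sequence from the sister chromatid, and was represented by Brca1 and Brca2, by Xrcc2 and by Rpa1, the large subunit of the protein that coats single-stranded DNA. Rpa1 read 13.83, 13.69, 13.96 and 13.89 on the control arrays and 13.87, 13.74, 13.83, 13.81 and 13.82 on the irradiated arrays. The control arrays spread more widely than the irradiated ones and enclosed them. The difference was -0.025 ± 0.075 and its 95% interval, -0.19 to 0.14, was among the narrowest of the members. Brca2, a mediator of strand exchange, read 8.50, 8.79, 8.86 and 8.59 against 8.93, 8.51, 8.78, 8.53 and 8.55 (difference -0.029 ± 0.14, interval -0.35 to 0.29). Irradiated array 1 gave the highest value and control array 1 the lowest, and the groups overlapped. Xrcc2 differed by -0.031 ± 0.23. Brca1 has no measured fold here, since its probe was not well above background on any control array and was so on 1 of 5 irradiated arrays. The log2 means were 2.80 ± 0.58 and 3.48 ± 0.63 (SD, n = 4 and 5).

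The Fanconi anaemia pathway unhooks strands that are cross-linked to each other. Fanca and Fancc belong to the core complex that marks Fancd2 with ubiquitin. Fanca read 11.34, 11.83, 11.83 and 11.49 on the control arrays and 11.78, 11.60, 11.71, 11.67 and 11.64 on the irradiated arrays, all of the latter within the control range, with a difference of 0.060 ± 0.12 (-0.20 to 0.32). For Fancc, the brighter probe read 10.04, 10.32, 10.21 and 10.24 and 10.63, 10.17, 10.05, 10.21 and 10.47, a difference of 0.10 ± 0.14 (-0.20 to 0.41), and irradiated arrays 1 and 5 were the highest. A second probe of Fancc, for another RefSeq transcript and named here after its values were seen, differed by -0.55 with no overlap between groups (limma adjusted p = 0.211), so that the probes of this gene disagreed in sign. Fancd2 differed by 0.26 ± 0.27 (-0.35 to 0.87) and was well above background on 2 of 4 control and 4 of 5 irradiated arrays.

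Non-homologous end joining ligates broken ends directly and is the main route for double-strand breaks in resting cells. Its 5 members had a median difference of 0.13, with 4 differences above 0 and none called. Xrcc6 and Xrcc5 encode the Ku heterodimer that clamps each end. Xrcc6 read 12.18, 12.09, 12.08 and 12.07 on the control arrays and 12.24, 12.19, 12.10, 11.96 and 12.09 on the irradiated arrays, a difference of 0.013 ± 0.081 with an interval of -0.17 to 0.19. Control arrays 2 to 4 were nearly equal and lay within the irradiated range. Xrcc5 read 11.11, 11.22, 11.26 and 11.37 against 11.37, 11.12, 11.34, 11.40 and 11.61 (difference 0.13 ± 0.11, -0.12 to 0.37). Irradiated array 5 was the highest and irradiated array 2 lay near the lowest control. Prkdc, the DNA-dependent protein kinase that Ku recruits, differed by 0.15 ± 0.13, Lig4, the ligase of this pathway, by 0.26 ± 0.13, and Xrcc4, its partner, by -0.031 ± 0.10. For Lig4, control array 4 was above all irradiated arrays except array 1.

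Base excision and single-strand break repair takes out oxidised bases and seals nicks. None of its 7 members was called, and their differences ran from -0.14 to 0.18. Xrcc1, the scaffold, read 12.87, 12.96, 13.12 and 12.95 on the control arrays and 12.82, 12.88, 12.59, 12.998 and 12.87 on the irradiated arrays (difference -0.14 ± 0.096, -0.36 to 0.071). Irradiated array 3 was the lowest and control array 3 the highest, with overlap between them. Lig1, the replicative ligase, read 12.22, 12.19, 12.03 and 11.85 and 12.45, 12.56, 12.08, 11.92 and 11.88 (difference 0.11 ± 0.16, -0.25 to 0.46). Irradiated arrays 1 and 2 were above all controls and the other irradiated arrays were inside the control range. Parp1, the main sensor of strand breaks, differed by 0.18 ± 0.21 and Parp2 by 0.033 ± 0.12. The differences were 0.10 for Polb, the gap-filling polymerase, 0.059 for Lig3, the nick ligase that works with Xrcc1, and -0.051 for Ogg1, which removes oxidised guanine. The sign of Lig3 turned with the scan pair as a block, to -0.087 as a fixed and -0.029 as a random block, and the difference was below 0 in all 4 pairs.

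Nucleotide excision repair cuts out bulky lesions, and it held the member with the lowest difference. Of its 7 members 5 were below 0, with a median of -0.073. Xpa, which verifies the lesion, read 12.98, 12.91, 12.74 and 12.89 on the control arrays and 12.82, 12.66, 12.88, 12.43 and 12.63 on the irradiated arrays, a difference of -0.19 ± 0.10 (-0.43 to 0.039, adjusted p = 0.605). Irradiated arrays 1 and 3 overlapped the controls and the others were below all of them. Xpc, the lesion sensor and a p53 target in human cells, read 11.86, 11.86, 11.53 and 12.18 and 11.87, 11.60, 11.71, 11.54 and 12.03 (difference -0.11 ± 0.15, -0.43 to 0.22). Control array 4 was the highest, control array 3 the lowest, and the irradiated arrays lay between them. Ddb2, the other sensor and likewise a p53 target in human cells, was picked after its values were seen and read 10.51, 10.88, 10.46 and 10.83 on the control arrays and 10.54, 10.30, 10.34, 10.22 and 10.49 on the irradiated arrays. Control arrays 2 and 4 were above every irradiated array, whereas control arrays 1 and 3 were not. Its difference was -0.29 ± 0.12 (95% interval -0.57 to -0.018, fold 0.816, limma p = 0.0387, adjusted p = 0.456, exact permutation p = 0.0635). With the scan pair as a random block Ddb2 was called (-0.32, limma adjusted p = 0.0418), and with the fixed block it was not (-0.33, 0.0948). The structure-specific nucleases and the helicase of the pathway differed by 0.18 (Ercc1), -0.073 (Ercc4, the partner of Ercc1), 0.17 (Ercc5) and -0.057 (Ercc2, the helicase).

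Mismatch repair was represented by Msh6, which recognises mispaired bases, and by Pms2, which acts after that recognition. Msh6 read 12.34, 12.29, 12.21 and 12.34 on the control arrays and 12.39, 12.22, 12.21, 12.30 and 12.33 on the irradiated arrays, and its difference of -0.0044 ± 0.075 had the narrowest 95% interval of the members (-0.17 to 0.16). The groups covered almost the same range. Pms2 read 9.84, 10.05, 10.05 and 10.06 and 9.93, 9.85, 9.92, 9.92 and 9.96 (difference -0.082 ± 0.092, -0.29 to 0.12). Control arrays 2 to 4 were above all irradiated arrays, and control array 1 was the lowest of the 9.

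Translesion polymerases copy past damage that stops the replication fork. Polk, which bypasses adducts on guanine, read 10.04, 10.05, 9.72 and 10.15 on the control arrays and 10.63, 10.48, 10.36, 10.03 and 10.26 on the irradiated arrays. Irradiated arrays 1, 2, 3 and 5 were above all controls, and irradiated array 4 was below 3 of them. The difference was 0.36 ± 0.14 (95% interval 0.042 to 0.68, fold 1.28, limma p = 0.0301, adjusted p = 0.409, exact permutation p = 0.0476), and a second probe of Polk differed by 0.29. Rev3l, the catalytic subunit of polymerase zeta, read 12.64, 12.37, 12.49 and 12.84 and 12.61, 12.42, 12.24, 12.46 and 12.69, a difference of -0.10 ± 0.12 (-0.37 to 0.17) with overlapping groups. Polh, which copies past ultraviolet dimers, differed by 0.11 ± 0.15. Rrm2b, the p53-induced subunit of ribonucleotide reductase that supplies nucleotides for repair in resting cells, read 8.78, 8.54, 9.30 and 8.42 on the control arrays and 8.90, 8.45, 8.84, 9.02 and 8.43 on the irradiated arrays. Its difference was -0.034 ± 0.21 (-0.50 to 0.43), with control array 3 the highest and control array 4 the lowest of the 9.

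Some members had a probe more. Of the 10 genes with 2 probes, 6 had differences of the same sign and 4 of opposite sign. None of the 51 probes of the members was called (0.333% of all probes were), and 4 had an unadjusted limma p under 0.05, beside 9.94% of all probes.

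Other genes of the same pathways were read in the same fit. Of 68 listed, 67 were found through the gene table. Of the 67, 1 was higher (Mgmt) and none was lower, and the median difference was 0.049. At an unadjusted limma p under 0.05, 7 of 67 were higher and 4 lower, beside 1451 and 980 of 19698 genes (7.37% and 4.98%). Mgmt, the enzyme that removes alkyl groups from guanine by direct reversal, read 10.31, 10.48, 10.37 and 10.39 on the control arrays and 11.67, 11.30, 11.38, 11.08 and 11.07 on the irradiated arrays. All irradiated arrays lay above all controls, with a difference of 0.91 ± 0.13 (fold 1.88, limma adjusted p = 0.0312). Its call was lost without any one of control arrays 1 to 4 or of irradiated arrays 2, 3 and 4, while the difference in these fits lay between 0.89 and 0.97. The call was also lost in the authors' normalized table (0.50, adjusted p = 0.419), with the replicate number of the labels as a block (0.97, adjusted p = 0.251) and without the intensity trend (0.91, adjusted p = 0.0569). Without overlap but not past the threshold with all arrays were Fanci (1.02 ± 0.20, adjusted p = 0.0746), which pairs with Fancd2, Exo1 (0.70 ± 0.22, adjusted p = 0.274), an exonuclease that resects ends, and Palb2 (0.52 ± 0.18, adjusted p = 0.33), which links Brca1 to Brca2. Neil2, a glycosylase for oxidised bases, was the one among them with a negative difference (-0.28 ± 0.14, adjusted p = 0.552). With Mgmt, 4 of the 67 were higher and 1 lower without overlap, beside 3.4% and 1.76% of all genes. In the authors' table the differences came to 0.64 for Fanci and 0.28 for Palb2. Within scan pairs as a fixed block, Fanci passed (limma adjusted p = 0.0479), while Exo1 (0.0806) and Palb2 (0.102) did not. With the random block the adjusted p was 0.00458 for Fanci, 0.0289 for Exo1 and 0.0435 for Palb2, so that all 3 passed. Mgmt passed in both fits. Of all genes, 3.84% were called with the fixed and 9.45% with the random block. Fancb, a core complex subunit named here after its values were seen, read 9.85, 9.80, 9.96 and 10.19 on the control arrays and 9.91, 9.21, 9.09, 9.13 and 9.50 on the irradiated arrays, and differed by -0.58 ± 0.18 (limma adjusted p = 0.262). Irradiated array 1 lay inside the control range and the other 4 below it. Fancb was lower with the fixed block (-0.71, adjusted p = 0.0254), with the random block (-0.67, 0.00944) and without irradiated array 1. The random block also called Aptx (-0.31, adjusted p = 0.0315) and Mutyh (-0.38, adjusted p = 0.0443) lower and Fen1 (0.29, adjusted p = 0.0245) higher.

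Genes of dividing cells were read beside the repair genes, since several genes of recombination are transcribed mainly in cells that replicate DNA. None of 22 was called by limma. At an unadjusted limma p under 0.05, 7 of the 22 were higher, a larger share than the 7.37% of all genes. Of the 22 differences 20 were above 0, and their median was 0.42. The largest were those of Cdk1 (0.67 ± 0.22), the kinase that drives mitosis, and Aurka (0.65 ± 0.20), a spindle kinase, followed by Birc5 (0.57 ± 0.24) and Top2a (0.57 ± 0.26). With the scan pair as a fixed block 1 of the 22 was called, Aurka (limma adjusted p = 0.0495), and with the random block 3 were, among them Aurka (0.0135) and Cdk1 (0.0162). In the same fits 3.84% and 9.45% of all genes were called. Averaged over the list, they stood at 0.14, 0.19, -0.067 and -0.26 on the control arrays and 0.54, 0.79, 0.47, 0.080 and 0.015 on the irradiated arrays relative to the control mean. Irradiated arrays 1 to 3 were above all controls in this average, whereas arrays 4 and 5 were not. Fanci read 7.01, 7.002, 6.73 and 6.81 on the control arrays and 8.13, 7.66, 8.20, 7.43 and 8.11 on the irradiated arrays, and Exo1 7.75, 7.81, 7.53 and 7.52 and 8.84, 8.65, 8.48, 7.86 and 7.94. Exo1 was high on the same irradiated arrays 1 to 3, and Fanci was high on arrays 1, 3 and 5. In bulk tissue, more cells of a kind and more RNA per cell cannot be told apart, and the part of dividing cells in the values of the repair genes was not tested.

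In 12 members all 4 scan pairs had the same sign (29.3% of the members, against 35.2% of all genes), 6 of them higher and 6 lower (17.9% and 17.3% of all genes). Mre11a differed by 0.26, 0.15, 0.12 and 0.15 in pairs 1 to 4, and Polk by 0.43, 0.31, 0.31 and 0.11. Chek2 differed by 0.54, 0.60, 0.79 and 0.23. These 3 genes were higher in the irradiated array of every pair. Ddb2 differed by -0.21, -0.54, -0.24 and -0.34 and Xpa by -0.32, -0.030, -0.31 and -0.26, and both were lower in every pair.

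With the scan pair as a fixed block, which leaves 8 arrays, no member was called by limma while 3.84% of all genes were (2.28% higher and 1.56% lower). The lowest adjusted p was that of Ddb2. With the pair as a random block on all 9 arrays, Ddb2 was the one member called, which is 2.44% of the members against 9.45% of all genes (5.65% higher and 3.8% lower). Polk came to 0.32 (adjusted p = 0.0624), Chek2 to 0.58 (0.0802) and Mre11a to 0.19 (0.0928).

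**Figure D5:**
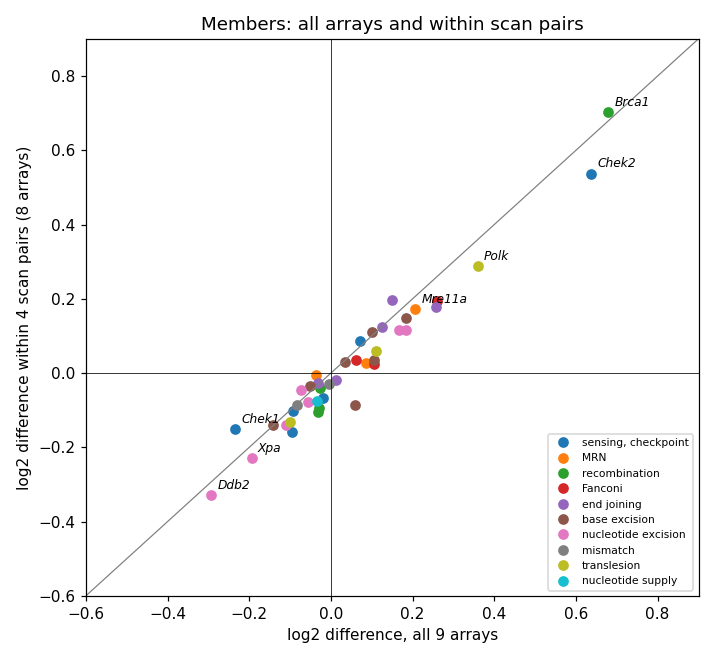
Log2 difference of the 41 genes with all 9 arrays (horizontal axis) against the difference within the 4 scan pairs (vertical axis, 8 arrays). Each point is a gene, coloured by pathway, and the diagonal line marks equal values. Ddb2 lies lowest on both axes, and Brca1, which is close to background, and Chek2 lie highest.

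The promoters of the members were read from RefSeq windows of the assembly GRCm38.p6, each with 250 bases before the transcript start and 50 after it. Windows were found for 31 of the 41 genes (35 windows), the others being Rad50, Nbn, Xrcc2, Fancd2, Prkdc, Polb, Xpc, Ddb2, Rev3l and Rrm2b. A single p53 decamer, the 10-base unit of which 2 in a row form the full motif, was in 2 of these windows, those of Fanca and Polk (5.71%, against 8.36% of all promoter windows). A full p53 motif, with at most 13 bases between its decamers, was in none, against 0.0731% of all windows. At that share 35 windows would seldom hold one, so its absence says little about the members. Xpc, Ddb2 and Rrm2b, named above for their link to p53, had no window. Among the p53 targets outside repair, 33.3% of 18 windows held a decamer and 5.56% the full motif, which was that of Cdkn1a. An E2F motif, the letters TTTCCCGC, TTTCGCGC, TTTGCCGC or TTTGGCGC on either strand, was in 6 member windows (17.1%, against 2.26% of all windows), those of Chek2, Mdc1, Brca2, Xrcc6, Lig1 and Msh6. The share was 12.1% in the windows of the other repair genes and 20% in those of the genes of dividing cells. E2F factors drive genes of the G1 to S transition. The differences of these 6 genes lay on both sides of 0, from -0.095 to 0.64. Letters that match a motif are a description of the sequence and do not show that a factor binds.

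The windows of Cdkn1a, the called p53 target that holds the full motif, of Polk, the member with the lowest p and a decamer, and of Chek2, the member with an E2F motif and the largest difference among these, are shown for comparison, with the motif in capitals. Cdkn1a is at chr17:29090729-29091028 on the plus strand, with its first decamer 73 bases before the transcript start. Polk is at chr13:96519138-96519437 on the minus strand, at the start of an annotated transcript inside the gene, with the decamer 231 bases before that start. Chek2 is at chr5:110839733-110840032 on the plus strand, likewise at the start of a transcript inside the annotated gene, with the motif, on its opposite strand, 152 bases before that start and inside the gene too.
Cdkn1a: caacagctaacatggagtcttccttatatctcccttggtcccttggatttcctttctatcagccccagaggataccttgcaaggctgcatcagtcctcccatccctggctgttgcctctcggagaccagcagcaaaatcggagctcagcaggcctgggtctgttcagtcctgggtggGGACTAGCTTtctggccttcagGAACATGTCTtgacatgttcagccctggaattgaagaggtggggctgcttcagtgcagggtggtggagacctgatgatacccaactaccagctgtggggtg
Polk: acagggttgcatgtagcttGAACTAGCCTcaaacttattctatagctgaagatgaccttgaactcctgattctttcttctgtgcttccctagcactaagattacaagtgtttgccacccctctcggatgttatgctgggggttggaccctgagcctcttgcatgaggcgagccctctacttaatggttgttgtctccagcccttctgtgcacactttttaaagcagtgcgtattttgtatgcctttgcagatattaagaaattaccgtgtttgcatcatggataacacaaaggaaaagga
Chek2: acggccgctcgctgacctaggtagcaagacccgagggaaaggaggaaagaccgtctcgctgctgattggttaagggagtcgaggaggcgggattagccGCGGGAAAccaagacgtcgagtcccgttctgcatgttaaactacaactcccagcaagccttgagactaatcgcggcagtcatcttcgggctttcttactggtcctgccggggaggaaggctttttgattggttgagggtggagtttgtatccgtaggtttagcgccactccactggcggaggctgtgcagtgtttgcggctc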

How the data were processed

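RNA from lung was hybridised to 9 single-colour Agilent mouse arrays. The authors deposited scanner output with a processed intensity for each spot, corrected for background and not normalized between arrays, and a table of normalized intensity values, which was used as an alternative. In the study, RNA of triplicate experiments was pooled at each time. The extraction software's settings are not given in the sources used here.

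Spot numbers in the scanner files did not match the table, so spots were numbered by position (rank correlation 1.00 on all arrays). Control spots and outliers were left out. A probe was kept where its signal exceeded the local background by a factor of 1.4 on 4 or more arrays (39303 of 39429). Quantile normalization was done on log2 values, and spots of a probe were averaged. Accessions were named through a RefSeq table of GRCm38.p6 (26055 probes, 19698 genes), and the brightest probe stood for a gene. Precision is limited by how many arrays there are, and saturation was not met.

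Groups were compared with limma 3.58.1 (R 4.3.3), fitting a trend of variance on intensity, and Benjamini-Hochberg adjustment, and single genes by an exact two-sided permutation test over 126 splits. Members and lists were chosen with earlier results of these data known. Array values are given for the member without overlap between groups and for the brightest pair of each pathway. They are also given for Chek2 and Ddb2, picked after their values were seen. Of the other repair genes, those past the threshold and the 5 largest differences without overlap are named, and of the remaining lists the 4 largest. Fancb, Aptx, Mutyh and Fen1 are named for their calls with a scan pair block.

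The positions of spots on the scan image were taken as pairing arrays: the origins of paired arrays differed by 1 array pitch. All 4 scan pairs had correlated deviations (0.20 to 0.46). The replicate numbers of the labels did not pair arrays (correlations -0.17 to 0.062). Alternatives were normexp (offset 50), each array scaled to its 75th percentile, the background filter on all arrays or none, the authors' table, leaving out each array, a replicate block, scan pairs as a fixed or random block, no intensity trend, array weights and averaging the probes of a gene.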

Additional observations from a re-analysis of the deposited data

Results flagged for a closer look

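A single array stood far from the rest of its group in 8 of the 108 groups of values examined for the members and the named genes (7.41%), where chance gives about 1 in 20. Among the control arrays, Trp53bp1 read 10.65 on array 4, with the others at 10.08 to 10.17. Xrcc6 read 12.18 on control array 1 (others 12.07 to 12.09), and Pms2 read 9.84 there (others 10.05 to 10.06). On control array 2, Ercc2 read 12.11 (others 11.69 to 11.71), and Neil2, a repair gene outside the list, read 9.46 (others 9.01 to 9.02). Among the irradiated arrays, Lig4 read 10.70 on array 1 (others 10.28 to 10.39). Xrcc4 read 10.40 on irradiated array 5 (others 10.18 to 10.24), and Cdk1, a gene of dividing cells, read 8.24 there (others 8.85 to 9.01). The values are log2 intensities.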

How the results depend on the processing

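The count of 0 members called higher held under all 20 alternatives, and 0 members called lower under all but the scan pair as a random block, which called Ddb2 (-0.32). Of 818 recomputed member differences 47 changed sign, none of a called value, and 40 of 41 members were never called. Leaving out arrays gave 0 to 1 other repair genes higher and 0 to 1 lower, 4 to 292 probes higher and 1 to 193 lower (75 and 56 with all arrays), and member medians from -0.019 to 0.065, the highest without irradiated array 4 and the most probes without irradiated array 1. Other repair genes called higher fell to 0 in the authors' table, with the replicate block and without an intensity trend, and came to 2 (1 lower) with the scan pair as a fixed block and 5 (3 lower) as a random block. Probes called higher and lower were 8 and 31 in the authors' table, 1 and 0 with the replicate block, 608 and 493 with the fixed and 1609 and 1290 with the random scan pair block, and 31 and 13 without the trend. Lower probes came to 91 with the filter on all arrays and 87 with array weights. The cause of these changes was not tested. The replicate block, on arrays whose numbers only share a label, called no member. Brca1, Fancd2 and Chek1 are limited by their signal over background.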
